A study of Mus musculus with 3 samples.

Results

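The 5′ fragments of tRNA-Glu-CTC and tRNA-Glu-TTC, the 2 nuclear tRNAs that carry glutamate in the mouse, were measured in small RNA libraries from CD1 mice, an outbred strain. The libraries came from mature sperm, from adult testis and from adult uterus. A read was taken as a fragment if it began at base 1, 2 or 3 of the mature tRNA and ran on in the tRNA's own sequence, either exactly, with 1 substituted base, or with 1 deletion of 1 to 3 bases. The 3 kinds of read were kept apart. In all, 3794 of the 4182219 distinct sequences in the 3 libraries met this rule, and they held 6366548 of 55350573 reads. Of these, 3563 sequences occurred in sperm, 875 in testis and 176 in uterus. The sequences of 1 tRNA share their source and are not replicates of anything.

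The sperm came from the cauda epididymis, the far end of the duct in which sperm are stored, and had been kept on ice in a detergent buffer that lyses somatic cells. Age of the sperm donors, number of animals and pooling are not stated. Small RNA received an adapter at each end and was copied and amplified by PCR. The study set the small RNAs of sperm against those of the organ that makes them and of an organ of the other sex. With 1 library for each source there is no replicate, and no difference between sources was tested. Intervals are 95% intervals. They cover counting error only, because each source has 1 library. PCR copies of 1 molecule are not independent, so the intervals can be too narrow even for that.

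The sperm library held 15690722 reads, the testis library 23783785 and the uterus library 15876066, all of 18 to 44 nt, and the limit taken for a count of 0, which is 3 counts, was 0.191, 0.126 and 0.189 reads per 1000000 reads (RPM). MicroRNAs took 2.42% of the sperm reads, 0.692% of the testis reads and 69.6% of the uterus reads, so that an RPM level depends on what else a library holds. In bulk RNA fewer cells of a type and less RNA per cell cannot be told apart. Marker microRNAs of male germ cells were abundant in sperm and testis and scarce in uterus. Of 14 microRNAs listed for male germ cells, 13 could be matched. Their sum was 63555 reads per 1000000 microRNA reads in the sperm library, 57699 in testis and 26.2 in uterus. In sperm miR-184-3p alone gave 76.1% of it, and 9 of the 13 stood lower in sperm than in testis, among them miR-34b-5p (126 in sperm, 9008 in testis) and miR-202-5p (5.26 in sperm, 15137 in testis). The 6 microRNAs of epithelium, led by miR-200c-3p, summed to 109075 in sperm, against 279 in testis and 683 in uterus, with miR-205-5p at 0 reads in testis. The 4 matched microRNAs of leukocytes summed to 4447 in the sperm library, 255 in testis and 116 in uterus. The 1 microRNA of endothelium, miR-126a-3p, stood at 366 in the sperm library, 6.07 in testis and 8.50 in uterus. The 2 matched erythroid microRNAs went the other way, with a sum of 76.3 in sperm, 285 in testis and 111 in uterus. Markers of epithelium, leukocytes and endothelium thus stood highest in the same library as the tRNA-Glu fragments, and their part in the levels below was not tested. For smooth muscle and stroma only miR-199a-3p could be matched, and it stood at 989 in the sperm library, 4173 in testis and 41487 in uterus.

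A transfer RNA folds into a cloverleaf whose anticodon loop reads the codon. Cleavage in or near that loop leaves a 5′ and a 3′ piece of similar size, and shorter 5′ pieces arise from cleavage in the D arm. In the mouse such fragments are known to be abundant in sperm that have passed through the epididymis. tRNA-Glu-CTC and tRNA-Glu-TTC differ in the first base of their anticodon, and glutamyl-tRNA synthetase charges both.

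After a set start of 8 bases, the sequences were rebuilt from the deposited reads themselves, 1 base at a time, since no tRNA sequence table was used. Bases are counted from 1 at the 5′ end of the mature tRNA, and in all forms the anticodon fell at bases 34 to 36. For tRNA-Glu-TTC 2 forms were set by their starts, which differ by C6T. Bases 9 to 36, rebuilt from the reads of each start apart, came out the same. Bases 37 to 46 were rebuilt from the same reads for both forms and could not differ. Both forms are shown over these 46 bases, with base 9, the base with most substituted reads when the last base of a read is left aside, and the anticodon in capitals.
tRNA-Glu-TTC form 1, bases 1 to 46: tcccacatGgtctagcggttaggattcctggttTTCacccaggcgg
tRNA-Glu-TTC form 2, bases 1 to 46: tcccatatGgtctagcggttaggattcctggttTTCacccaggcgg
tRNA-Glu-CTC matched form 1 at 34 of 46 bases and differed at 12. A read that ends before base 34 holds no anticodon, and it was assigned by the bases that differ before that point.

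The gene table of GRCm38.p6 names 12 genes for tRNA-Glu-CTC and 8 for tRNA-Glu-TTC. By GENCODE M21, 9 of the 12 lie between genes and 3 in introns of Arrb1, Hdgfl2 and Fcgr3. Of the 8 genes for tRNA-Glu-TTC, 4 lie between genes and 4 in introns of Gm17575, Platr30, Elf1 and Btn1a1. The reads do not tell gene copies of 1 sequence apart, and a copy that differs by 1 base cannot be told apart from an altered read.

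Exact reads of tRNA-Glu-CTC dominated in sperm. There were 3344191 in the sperm library, 116193 in testis and 399 in uterus. That was 213132 RPM in sperm, 4885 in testis and 25.1 in uterus, or 21.3% of all reads in sperm against 0.489% in testis. The level was 43.6 times higher in sperm than in testis (interval 43.4 to 43.9), 8480 times higher in sperm than in uterus (7688 to 9378), and 194 times higher in testis than in uterus (176 to 215). The sizes moved with the denominator and the reads counted. Per microRNA read in place of all reads, the excess was 12.5-fold for sperm over testis, 243629-fold for sperm over uterus and 19552-fold for testis over uterus. Within reads of 29 to 34 nt these were 46.7, 303 and 6.50. Over distinct sequences in place of reads, testis was lower than uterus, at a ratio of 0.227.

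Exact reads of tRNA-Glu-TTC followed the same order of libraries at lower levels. There were 114005 in the sperm library, 6652 in testis and 478 in uterus, or 7266, 280 and 30.1 RPM. The level was 25.98 times higher in sperm than in testis (25.3 to 26.6), 241 times higher in sperm than in uterus (221 to 265) and 9.29 times higher in testis than in uterus (8.46 to 10.2). Per microRNA read these became 7.42, 6933 and 934, and with DESeq2 size factors over microRNAs 8.29, 2563 and 309. Within reads of at least 24 nt, sperm over uterus was 137 and testis over uterus 4.90. As distinct sequences, testis was again lower than uterus, at 0.289. Counted in reads, both tRNAs were therefore highest in sperm and lowest in uterus, beyond counting error, but by unequal amounts. tRNA-Glu-CTC exceeded tRNA-Glu-TTC 29.3-fold in sperm (29.2 to 29.5) and 17.5-fold in testis (17.04 to 17.91). With altered reads included the order of these 2 libraries turned round, at 37.6-fold in sperm (37.4 to 37.7) and 64.8-fold in testis (63.6 to 66.1). In uterus it was lower, at 0.835 reads per read of tRNA-Glu-TTC (0.729 to 0.955), but among uterus reads of at least 24 nt it was 1.43. By distinct sequences tRNA-Glu-TTC led in sperm and testis too, with 0.487 and 0.404 sequences of tRNA-Glu-CTC for each of its own.

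The 2 forms of tRNA-Glu-TTC did not share 1 profile. Form 1 had 79467 exact reads in the sperm library, 2714 in testis and 345 in uterus. Form 2 had 34538 in sperm, 3938 in testis and 133 in uterus. Form 1 thus outnumbered form 2 by 2.30 in sperm (2.27 to 2.33) and by 2.59 in uterus (2.12 to 3.19), while form 2 led in testis, where form 1 had 0.689 reads per read of form 2 (0.656 to 0.724). Accordingly, the excess of sperm over testis was 44.4-fold for form 1 (42.7 to 46.1) and 13.3-fold for form 2 (12.9 to 13.7). A single base, at position 6, separates these 2 sets of reads.

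Altered reads changed the picture between sperm and testis. With substitutions and deletions included, tRNA-Glu-CTC reached 353822 RPM in sperm, 27572 in testis and 32.8 in uterus. The excess of sperm over testis was then 12.8-fold (12.8 to 12.9), since 82.3% of the testis reads of this tRNA were altered. For tRNA-Glu-TTC the inclusive levels were 9422, 425 and 37.4 RPM, and the excess of sperm over testis was 22.2-fold (21.7 to 22.6). Both tRNAs with all classes made up 36.3% of the sperm library, 2.80% of the testis library and 0.00701% of the uterus library.

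**Figure D1:**
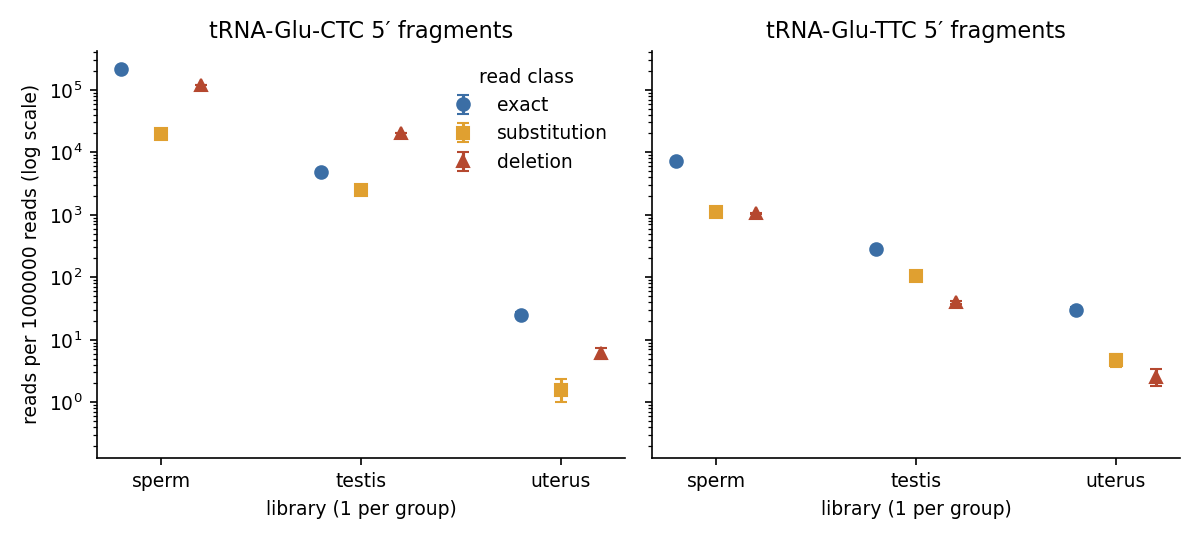
Reads per 1000000 reads (RPM, log scale) of the 5′ fragments of tRNA-Glu-CTC (left) and tRNA-Glu-TTC (right) in the sperm, testis and uterus libraries, for exact reads (circles), reads with a substitution (squares) and reads with a deletion (triangles), with 95% Poisson intervals where they exceed the marker. Deletion reads of tRNA-Glu-CTC lie below the exact reads in sperm (121390 against 213132 RPM) and above them in testis (20168 against 4885 RPM).

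The 5′ end was nearly uniform in sperm and testis. Exact reads of tRNA-Glu-CTC began at base 1 in 99.6% of cases for sperm, 99.9% for testis and 99.5% for uterus. For tRNA-Glu-TTC the shares were 98.4%, 99.6% and 97.3%. These are shares among reads that began at base 1 to 3. Among exact reads that began at any of bases 1 to 29, 99.6% in sperm and 99.9% in testis began at base 1 to 3 of tRNA-Glu-CTC. In uterus only 6.47% did, or 399 of 6166 reads. Reads that began at bases 13 to 16 stood at 103 RPM in sperm, 3.87 RPM in testis and 340 RPM in uterus, where they numbered 5398. The median last base of these reads was 33 in each library. With at least 18 nt, reads from these starts cannot end far before the anticodon, so this end is partly set by read length. For tRNA-Glu-TTC, 97.7% of exact sperm reads, 98.5% of testis reads and 69.6% of uterus reads began at base 1 to 3. The exact pieces of tRNA-Glu-CTC in uterus were thus mainly internal ones, which are outside the rule and enter no other value here.

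The 3′ end set the libraries apart. In sperm, 2390725 of the 3344191 exact reads of tRNA-Glu-CTC, or 71.5%, ended at base 32, a base of the anticodon loop. A further 10.3% ended at base 31 and 4.59% at base 33. In testis, 105871 of 116193, or 91.1%, ended at base 30, in the stem that closes the loop, with 4.90% at base 31 and 1.99% at base 32. In uterus the leading ends were base 21 with 128 of 399 reads, base 22 with 86 and base 29 with 51. The median exact read of this tRNA was accordingly 32 nt in sperm, 30 nt in testis and 22 nt in uterus.

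Fragments that reached the anticodon were most frequent in sperm. An exact read from base 1 needs at least 34 nt to do so. Reads of 34 nt, of any source, made up 7.85% of the sperm library, 0.314% of testis and 0.000372% of uterus. Of the longer lengths the most frequent in uterus was 44 nt, with 0.000611%. Whether the ends seen in uterus follow from these lengths was not tested. Ends at bases 34 to 36 held 9.87% of exact tRNA-Glu-CTC reads in sperm, 0.201% in testis and 0 of 399 in uterus, which allows up to 0.752% at 3 counts. For tRNA-Glu-TTC they held 36.7% in sperm, 0.421% in testis and 0 of 478 in uterus, which allows up to 0.628%. Ends past the anticodon were rare, with 887 exact reads of tRNA-Glu-CTC and 461 of tRNA-Glu-TTC in sperm and 0 reads of either in testis and uterus.

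Reads of tRNA-Glu-TTC ended over a wider range. In sperm, 43532 of 114005 exact reads, or 38.2%, ended at base 31. Base 36, the last of the anticodon, followed with 16.9%, and base 34 with 13.2%. In testis, 50.5% ended at base 30, 15.4% at base 31 and 13.1% at base 33. In uterus, 166 of 478 ended at base 21, 105 at base 22 and 52 at base 20, and 79.3% ended at bases 18 to 24. All reads of a library, of any source, were most often of 32 nt in sperm (20.8%), 30 nt in testis (31.4%) and 22 nt in uterus (52.5%). Whether the ends follow from these lengths was not tested. Among exact 5′ reads the uterus library thus held mainly short pieces of both tRNAs, and the testis library mainly pieces that stop at base 30. The sequences with most exact reads show these 3 ends, in lower case except for anticodon bases.
tRNA-Glu-TTC form 1, bases 1 to 31: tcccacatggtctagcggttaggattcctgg
tRNA-Glu-TTC form 1, bases 1 to 36: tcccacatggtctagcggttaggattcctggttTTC
tRNA-Glu-TTC form 2, bases 1 to 30: tcccatatggtctagcggttaggattcctg
tRNA-Glu-TTC form 1, bases 1 to 21: tcccacatggtctagcggtta
The first led in sperm, where it had 30068 reads, and it had 358 in testis and 0 in uterus. The second had 13301 sperm reads, 1 testis read and 0 uterus reads. The third had 1144 reads in sperm and led in testis with 1954, and uterus had 0. The fourth had 4 reads in sperm and 10 in testis and led in uterus with 120.

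**Figure D2:**
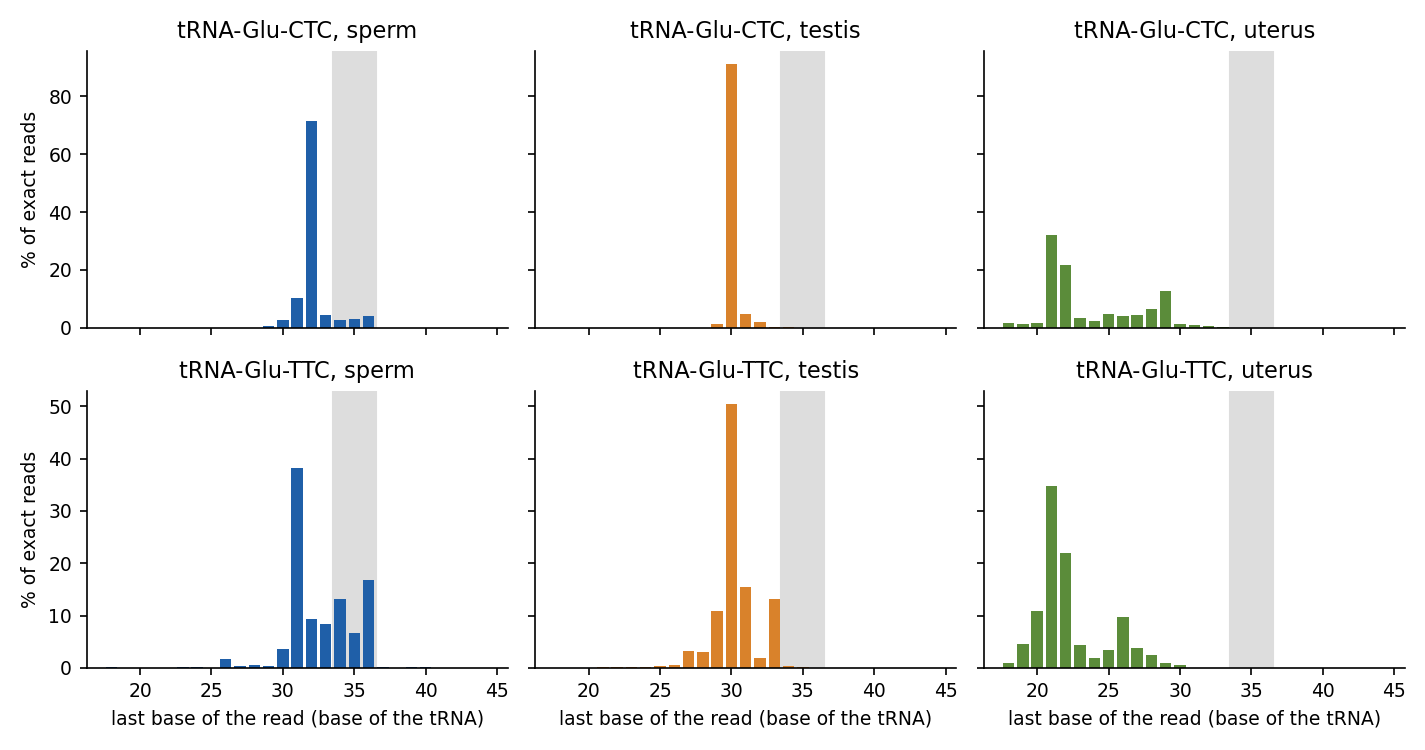
Share of exact reads (%) by the base of the tRNA at which the read ends, for tRNA-Glu-CTC (top) and tRNA-Glu-TTC (bottom) in sperm, testis and uterus (left to right); the grey band marks the anticodon at bases 34 to 36. The peak lies at base 32 (71.5%) for tRNA-Glu-CTC in sperm, at base 30 (91.1%) in testis and at base 21 (32.1%) in uterus.

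Split by end, the difference between sperm and testis was not 1 ratio but many. Exact tRNA-Glu-CTC reads that ended at base 30 stood at 6113 RPM in sperm and 4451 RPM in testis (ratio 1.37, interval 1.36 to 1.39). Those that ended at base 31 stood at 21976 RPM in sperm and 239 RPM in testis (ratio 91.9, 89.5 to 94.3). At base 32 the levels were 152366 RPM in sperm and 97.2 RPM in testis (ratio 1567, 1505 to 1633). In RPM the 2 libraries were thus close at base 30 and far apart at the next 2 bases. Per microRNA read every ratio of sperm over testis falls by 1 factor, which takes that of all exact reads from 43.6 to 12.5. By this factor base 30 would stand lower in sperm than in testis, and the order of the ends would not change. At base 36 sperm had 142870 reads and testis 11 (ratio 19687, 11003 to 39439). Base 29, at 22.9 (21.9 to 24.1), stood above base 30, so that the ratio did not climb evenly with length.

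With altered reads included, the fragment of tRNA-Glu-CTC that ends at base 30 was lower in sperm than in testis. Its level was 9893 RPM in sperm and 23639 RPM in testis (ratio 0.418, 0.416 to 0.421). At base 32 the ratio with altered reads was 192 (189 to 194). For tRNA-Glu-TTC the exact level at base 30 was 262 RPM in sperm and 141 RPM in testis (ratio 1.86, 1.77 to 1.95), and altered reads left it at 1.74. Per microRNA read the ratio of all its exact reads falls from 25.98 to 7.42, and by that factor base 30 would stand lower in sperm. At base 29 the exact level was lower in sperm, at 21.4 RPM against 30.3 RPM in testis (ratio 0.705, 0.618 to 0.804). At base 31 it was 64.3-fold higher in sperm (60.4 to 68.4). Among ends with at least 10 testis reads, the exact ratio was therefore lowest at base 30 for tRNA-Glu-CTC and at base 29 for tRNA-Glu-TTC, and both tRNAs had a far larger one from base 31 on, with a drop to 16.7 at base 33 of tRNA-Glu-TTC.

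**Figure D3:**
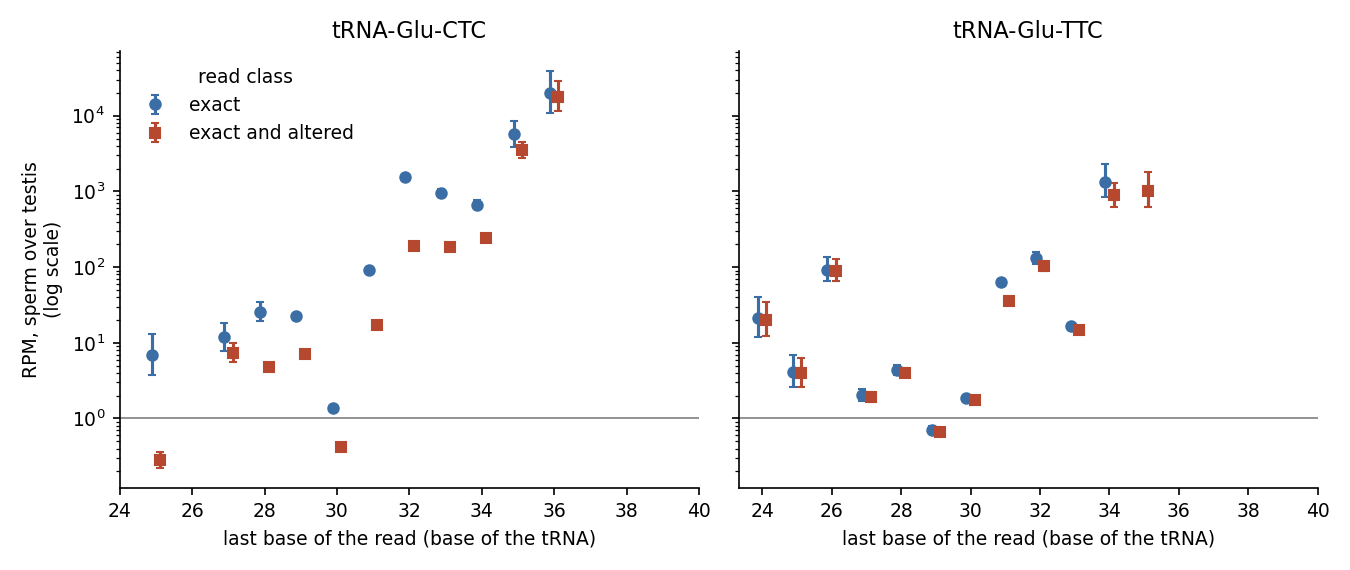
Level in sperm over level in testis (both in RPM, log scale) by the base at which the read ends, for exact reads (circles) and for exact and altered reads together (squares), with 95% intervals. End positions with fewer than 10 testis reads are left out and the grey line marks equal RPM. Another denominator would shift all points by 1 factor. For tRNA-Glu-CTC the exact ratio is 1.37 at base 30 and 1567 at base 32, and with altered reads the point at base 30 falls under the line (0.418).

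The piece of tRNA-Glu-CTC from base 1 to base 21 had 1 read in sperm, 1 in testis and 126 in uterus. Among the 5 leading exact sequences of this tRNA in uterus it was the only one whose count was highest there. The piece that ends at base 22 had 99 sperm reads, 3 testis reads and 86 uterus reads. The longer pieces that lead in sperm, from base 1 to base 31, 32 or 33, had between 1 and 4 reads each in uterus.

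Most altered reads of tRNA-Glu-CTC were deletions. Deletions made up 34.3% of its sperm reads, 73.1% of its testis reads and 18.5% of its uterus reads, and substitutions 5.45%, 9.14% and 4.81%. Altered reads of both kinds thus made up 39.8% in sperm (39.7% to 39.8%), 82.3% in testis (82.2% to 82.4%) and 23.3% in uterus (19.7% to 27.1%). For tRNA-Glu-TTC deletions made up 11.1%, 9.33% and 6.75%, and substitutions 11.8%, 24.9% and 12.6%. The testis library had the largest altered share for both tRNAs. In tRNA-Glu-CTC most of the excess over sperm was in deletions, and in tRNA-Glu-TTC all of it was in substitutions. Of the 2519 substituted testis reads of tRNA-Glu-TTC, however, 1286 were changed only at their last base. Without such reads the substituted share of tRNA-Glu-TTC was 11.6% in sperm, 13.97% in testis and 11.1% in uterus. The share of tRNA-Glu-CTC was then 5.20% in sperm, 5.65% in testis and 3.70% in uterus.

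Nearly all deletions in tRNA-Glu-CTC fell in the run of G and T at bases 5 to 11, which repeats a triplet. The loss of 1 of the neighbouring G bases at 6 and 7 accounted for 1358559 sperm reads, 241305 testis reads and 61 uterus reads. The loss of 3 bases, 1 unit of the repeat, accounted for 491676 sperm reads, 234706 testis reads and 21 uterus reads. These 2 deletions together were 97.1% of the deletion reads of sperm, 99.2% of those of testis and 85.4% of those of uterus. The loss of 1 base was 2.76 times as frequent as the loss of 3 in sperm (2.75 to 2.77), and the 2 were nearly level in testis, at 1.03 (1.02 to 1.03). Within a repeat the reads do not show which unit is missing. Another deletion, of 1 base at 17 or 18, had 40453 sperm reads, 1017 testis reads and 5 uterus reads.

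The altered share did not depend on the end of the read alone. Among tRNA-Glu-CTC reads that ended at base 30, deletions made up 32.5% in sperm and 74.8% in testis. Among those that ended at base 32 they made up 34.9% in sperm and 53.8% in testis. In sperm the share was 34.6% over ends at bases 29 to 32 and 31.4% over ends at 33 to 36. It was 89.3% among the 12463 sperm reads that ran past the anticodon. Of these long reads with a deletion, 99.7% had it within bases 5 to 11.

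In tRNA-Glu-TTC, which lacks that repeat, the leading deletion was of 2 bases at positions 4 to 7, with 9698 sperm reads, 628 testis reads and 17 uterus reads. It made up 6.56% of the reads of this tRNA in sperm, 6.21% in testis and 2.87% in uterus. The change at base 6 that separates the forms lies in this stretch, and either form can give the same read. Such reads therefore cannot be assigned to 1 of the forms, and positions 4 to 7 are counted on form 1. A 1-base deletion at 17 or 18 had 2724 reads in sperm and 113 in testis, and one at 9 or 10 had 2616 in sperm, 90 in testis and 6 in uterus. In uterus a 2-base deletion at 3 to 4 also had 6 reads.

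Deletions were also counted in 2 further tRNAs measured in the same way. 5′ reads of tRNA-Gly-GCC, which holds a like triplet repeat at the same bases, included 19.2% with a deletion in sperm, 72.9% in testis and 5.27% in uterus. 5′ reads of tRNA-Val-CAC, which does not, included 1.31%, 0.388% and 2.37%. The name tRNA-Val-CAC is that of the rebuilt sequence. In sperm 10219 of its 14584 exact and substituted reads that ran past base 34 had C34G, or 70.1%. Most reads that show this base and the next thus did not read CAC, and reads that end before base 34 hold no anticodon. In sperm and testis both tRNAs with the repeat thus had a larger deletion share than both without it. In uterus they did not, since tRNA-Gly-GCC (3.68% to 7.29%) was not above tRNA-Glu-TTC at 6.75% (4.86% to 9.07%). The deletions of tRNA-Gly-GCC were also not those of tRNA-Glu-CTC. Its leading deletion in testis was of 2 bases at 5 to 6, with 43.3% of its reads, then of 1 base at 6 or 7 with 27.01%, and the loss of 3 bases had 2.03%. In testis these shares rest on 1677 reads of tRNA-Gly-GCC and 258 of tRNA-Val-CAC. These 4 tRNAs are too few for a test.

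**Figure D4:**
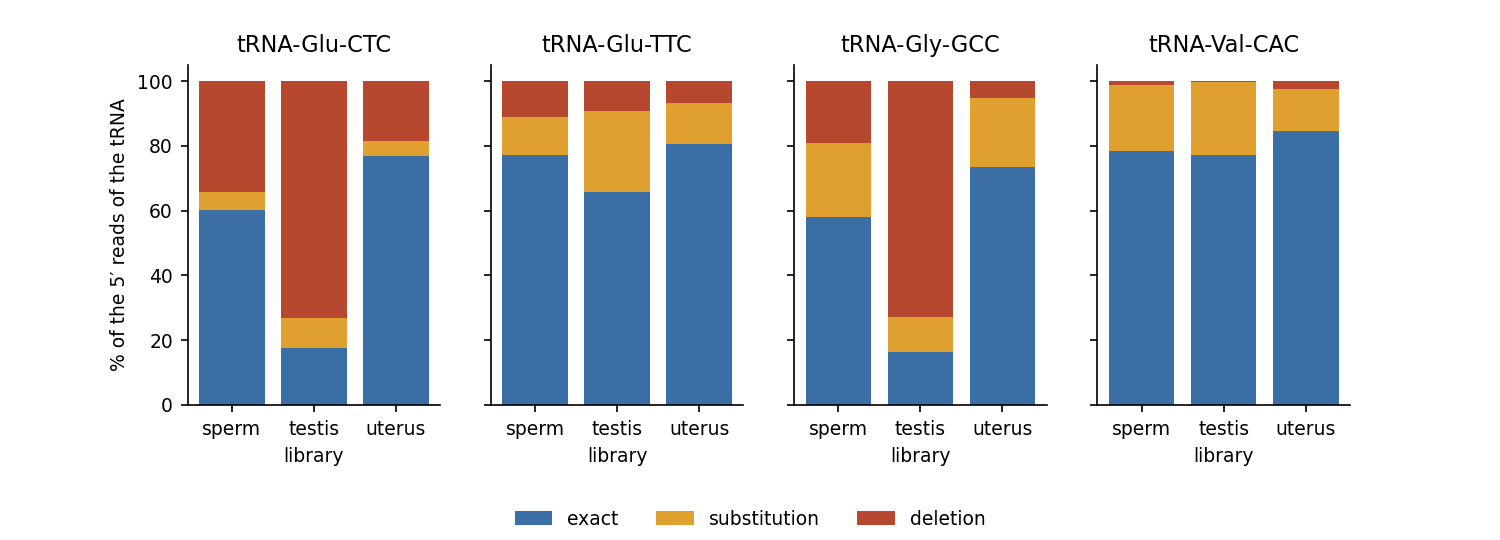
Share (%) of exact reads, reads with a substitution and reads with a deletion among the 5′ reads of tRNA-Glu-CTC, tRNA-Glu-TTC, tRNA-Gly-GCC and tRNA-Val-CAC in the sperm, testis and uterus libraries; each bar adds up to all 5′ reads of the tRNA in the library. Deletions take 73.1% of tRNA-Glu-CTC and 72.9% of tRNA-Gly-GCC in testis, against 9.33% of tRNA-Glu-TTC and 0.388% of tRNA-Val-CAC. The name tRNA-Val-CAC is that of the rebuilt sequence, and its bars can hold reads with another anticodon.

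With the last base of a read left aside, base 9 had the most substituted reads of tRNA-Glu-TTC in each library and of tRNA-Glu-CTC in testis. It is a guanosine in both tRNAs and a known site of methylation in other mammalian tRNAs. In tRNA-Glu-CTC of sperm it had 24108 reads and came after base 30 with 77873, base 6 with 30215 and base 27 with 26791. In uterus base 6 of tRNA-Glu-CTC had 6 such reads and base 9 had 2. No modification was measured here. Among exact and substituted reads, another base at position 9 was found in 8.25% of tRNA-Glu-TTC reads in sperm (8.10% to 8.40%), 9.84% in testis (9.23% to 10.5%) and 10.3% in uterus (7.90% to 13.1%). In tRNA-Glu-CTC it was found in 0.661% in sperm (0.653% to 0.669%), 17.3% in testis (17.2% to 17.5%) and 0.472% in uterus, or 2 of 424 reads. The rate in tRNA-Glu-TTC thus lay within a narrow range over the 3 libraries, while that in tRNA-Glu-CTC was high in testis alone.

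The substituted letter at base 9 differed between the tRNAs. In tRNA-Glu-TTC the leading change was G9T in each library, with 50.5% of the changes at this base in sperm, 65.7% in testis and 56.1% in uterus. G9C and G9A followed, with 31.5% and 18.01% in sperm. In tRNA-Glu-CTC the leading change was G9C, with 54.1% in sperm and 57.2% in testis, then G9A with 33.99% and 33.47%. The letters were thus alike in sperm and testis within tRNA-Glu-CTC although the rates were far apart. The leading substituted sequences of tRNA-Glu-TTC are shown with the changed base in capitals.
tRNA-Glu-TTC form 1 with G9T, bases 1 to 31: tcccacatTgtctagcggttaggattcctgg
tRNA-Glu-TTC form 2 with G9T, bases 1 to 30: tcccatatTgtctagcggttaggattcctg
tRNA-Glu-TTC form 1 with G9T, bases 1 to 21: tcccacatTgtctagcggtta
The first had 1281 sperm reads, 18 testis reads and 0 uterus reads. The second had 52 sperm reads, 181 testis reads and 0 uterus reads. The third had 0 reads in sperm and testis and 10 in uterus. These 3 end where the leading exact sequence of the library ends, but the substituted reads as a whole did so in sperm more than in testis. In sperm 38.6% of the substituted reads of tRNA-Glu-TTC ended at base 31, against 38.2% of the exact reads. In testis 27.7% of them ended at base 30 and 49.9% at base 31, against 50.5% and 15.4% of the exact reads. In tRNA-Glu-CTC of testis 20.5% of the substituted reads ended at base 32, against 1.99% of the exact reads. These shares include reads changed at their last base.

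The changes at base 30 of tRNA-Glu-CTC in sperm were found in 2.22% of the exact and substituted reads that ran past it. By this share bases 32 and 34 were close, at 2.12% and 2.03%, and base 37 was at 2.35% on 20 of 851 reads. C30G, with 62454 reads, was the most frequent single substitution of this tRNA in sperm. G6A followed with 22894 reads and C27T with 19712. These made up 0.628% (G6A) and 0.541% (C27T) of the sperm reads that ran past the base, against 0.429% and 0.552% in testis. Base 30 had a lower share in testis, at 0.451%. Only 1 substitution was allowed, so reads changed at their last base count in every share by position but cannot show another change. They made up 13.7% of exact and substituted testis reads of this tRNA and 0.406% of those of sperm. Past base 30 they weigh more in testis. There 45.1% of the exact and substituted reads that end at base 31 had G31T, and 73.2% of those that end at base 32 had C32T. The testis shares are thus lowered, that of base 30 among them, and by how much was not measured. In tRNA-Glu-TTC the fourth most frequent substitution was C3A in each library, with 1192 sperm reads, 42 testis reads and 2 uterus reads. The fifth was A24G in sperm, with 448 reads, and C3T in testis, with 41. The leading C3A sequence, with 557 reads, began at base 3, so that its changed base is also its first. At the first anticodon base of tRNA-Glu-CTC, C34T was found in 5434 of 283411 exact and substituted sperm reads that reached base 35, or 1.92%, and in 9 of 51 in testis.

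**Figure D5:**
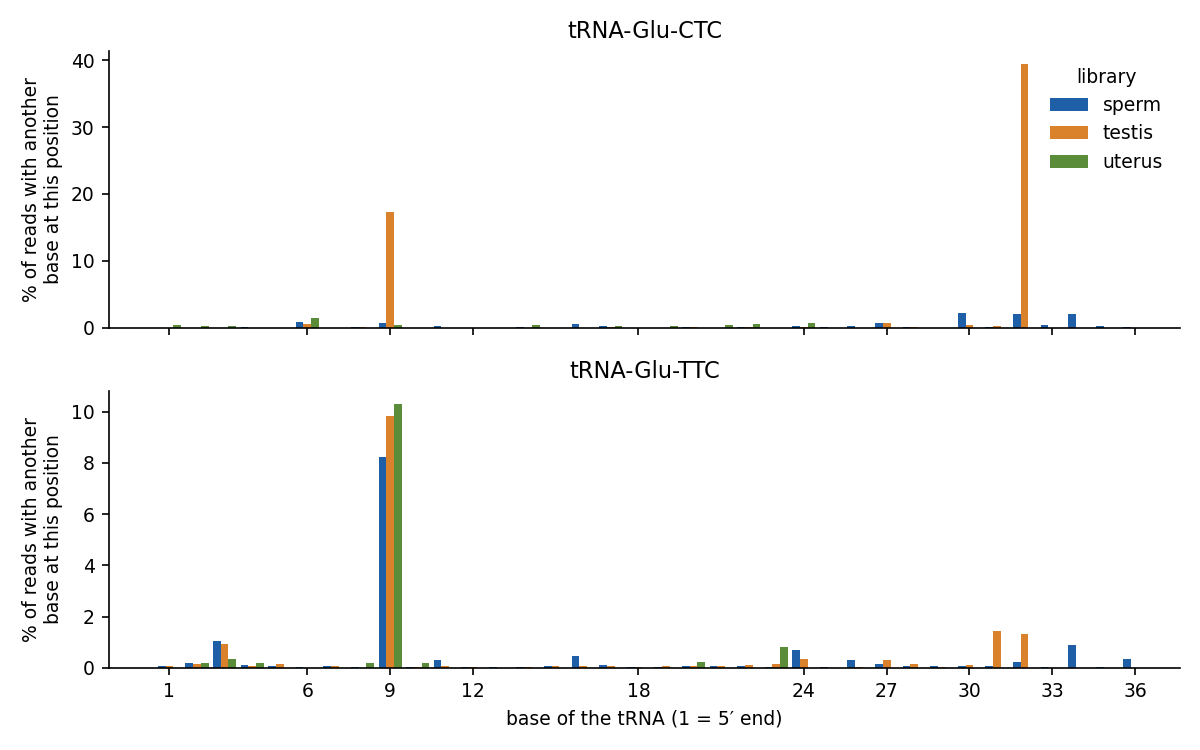
Share (%) of exact and substituted reads that hold another base at each position of tRNA-Glu-CTC (top) and tRNA-Glu-TTC (bottom) in sperm, testis and uterus, among reads that run past the position; positions with fewer than 100 such reads are left out, and the vertical scales differ. Base 9 stands out in testis for tRNA-Glu-CTC (17.3%) and in all 3 libraries for tRNA-Glu-TTC, and the bar at base 32 of tRNA-Glu-CTC in testis rests on 1073 reads.

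The last base of a read was counted apart from these, since a changed last base can be a substitution or a base added to a shorter fragment, which cannot be told apart. Among exact and substituted reads of tRNA-Glu-CTC, a changed last base was found in 0.406% of the sperm reads, 13.7% of the testis reads (13.6% to 13.9%) and 1.42% of the uterus reads. For tRNA-Glu-TTC it was found in 0.247%, 14.02% (13.3% to 14.8%) and 1.81% of them. The changed last base of tRNA-Glu-CTC was T in 12.7% of cases in sperm and in 89.3% in testis. For tRNA-Glu-TTC it was T in 16.3% of cases in sperm and in 89.04% in testis. The testis library therefore differed from sperm in how often the last base was changed and in the letter found there, for both tRNAs.

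These reads sat just past the testis end at base 30. Of the exact and substituted tRNA-Glu-CTC reads in testis that ended at base 31, 45.1% had G31T, and of those of tRNA-Glu-TTC 44.6% had it. Of the exact and substituted tRNA-Glu-CTC reads that ended at base 32, 0.0375% had C32T in sperm and 73.2% in testis, or 10691 of 14598. With deletion reads counted as well, 31586 testis reads ended there. At base 30 itself C30T was found in 2.36% of the exact and substituted testis reads that ended there. Among exact and substituted testis reads of tRNA-Glu-CTC that ran past base 32, C32T was found in 37.3%, or 400 of 1073. Base 33 is T in both tRNAs and base 32 is T in tRNA-Glu-TTC. At these bases an added T would count as an exact match, so the 124 and 872 exact testis reads of tRNA-Glu-TTC that end at bases 32 and 33 cannot be told apart from shorter fragments with added T.

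Reads that held bases 11 to 26 of a tRNA exactly but were altered beyond the rule were counted as a check on it. For tRNA-Glu-CTC there were 355323 sperm reads, 202418 testis reads and 13 uterus reads, which were 6.40%, 30.9% and 2.50% of the reads within the rule. For tRNA-Glu-TTC they numbered 2482 in sperm and 807 in testis, or 1.68% and 7.98%, and 0 in uterus. The rule thus left out a larger share in testis than in sperm for both tRNAs. With these reads added to all other classes, tRNA-Glu-CTC was 10.4 times higher in sperm than in testis.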

How the data were processed

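The values are the authors' deposited counts per distinct read sequence, whole numbers with no sign of scaling. Genome build mm9 is named in the submitters' processing notes; trimming, sizing and collapsing of reads: not given in the sources used here. In sperm and testis, 1 line each without a sequence was left out. Members, lists and alternatives were chosen with earlier results of these data known. Each tRNA sequence was rebuilt from a start of 8 bases by the most frequent next base among reads. Exact, substituted and deleted forms were then matched, and the matching was tested on simulated reads of random sequences. That did not test forms that differ by 1 base, or the place of a deletion in a repeat. Among the tRNA-Glu forms base 9 of tRNA-Glu-CTC had the weakest support, with 81.2% of reads; base 34 of tRNA-Val-CAC had 71.5%. Items named were drawn from the 5 leading exact sequences, 5 substitutions, 3 deletions and 3 ends of each tRNA and library, of which not all are printed; C34T, changes of the last base and further ends were chosen after their values were seen. 1 sequence set is not reported here. MicroRNAs were matched by the first 20 bases to RefSeq. Shares have Clopper-Pearson, levels Poisson and ratios conditional exact binomial 95% intervals. Alternatives used other denominators (edgeR 4.0.16 TMM and DESeq2 1.42.0 size factors over microRNAs, in R 4.3.3), read classes, lengths and filters; adding reads outside the rule was chosen after seeing the data. Python 3.11.15, numpy 2.4.6, pandas 2.3.3, scipy 1.17.1 and matplotlib 3.10.9 were used.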

Additional observations from a re-analysis of the deposited data

How the results depend on the processing

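Ratios of levels are given here as sperm over testis, sperm over uterus and testis over uterus, in this order. As reported they were 43.6, 8480.4 and 194 for tRNA-Glu-CTC and 25.98, 241 and 9.29 for tRNA-Glu-TTC. Each alternative that follows moved some of them by more than the counting error, and the cause was not tested. Per microRNA read they were 12.5, 243629 and 19552 for tRNA-Glu-CTC and 7.42, 6933 and 934 for tRNA-Glu-TTC. With TMM factors they were 20.7, 57979.5 and 2800.4 for tRNA-Glu-CTC and 12.3, 1649.9 and 134 for tRNA-Glu-TTC. With DESeq2 size factors they were 13.9, 90077 and 6472 for tRNA-Glu-CTC and 8.29, 2563 and 309 for tRNA-Glu-TTC. Within reads of 29 to 34 nt they were 46.7, 303 and 6.50 for tRNA-Glu-CTC and 23.9, 174 and 7.30 for tRNA-Glu-TTC. Within reads of at least 24 nt they were 46.8, 2808 and 60.1 for tRNA-Glu-CTC and 27.9, 137 and 4.90 for tRNA-Glu-TTC. With altered reads they were 12.8, 10802 and 842 for tRNA-Glu-CTC and 22.2, 252 and 11.4 for tRNA-Glu-TTC. With reads outside the rule added as well they were 10.4, 11214 and 1075 for tRNA-Glu-CTC and 20.9, 256 and 12.3 for tRNA-Glu-TTC. As shares of distinct sequences they were 5.86, 1.33 and 0.227 for tRNA-Glu-CTC and 4.87, 1.41 and 0.289 for tRNA-Glu-TTC. Testis over uterus thus turned round for both tRNAs when distinct sequences were counted. Without single-read sequences tRNA-Glu-CTC was 42.9 times higher in sperm than in testis; the other ratios under this setting, and all those with starts at base 1, stayed within counting error. Reads of tRNA-Glu-CTC per read of tRNA-Glu-TTC became 0.487 in sperm, 0.404 in testis and 0.515 in uterus as distinct sequences, so that the order turned round in sperm and testis. With altered reads they became 37.6 in sperm and 64.8 in testis. In uterus the order turned round at 24 nt and longer, with 1.43. Counted as distinct sequences, the leading end held 5.36%, 15.8% and 11.8% in sperm, testis and uterus for tRNA-Glu-CTC, and 5.22%, 12.8% and 9.09% for tRNA-Glu-TTC. With altered reads it held 71.9% in sperm and 85.7% in testis for tRNA-Glu-CTC and 44.5% in testis for tRNA-Glu-TTC. With starts at base 1 it held 71.5% for tRNA-Glu-CTC and 37.8% for tRNA-Glu-TTC in sperm. The share of starts at base 1 became, with altered reads, 99.5% in sperm and 98.1% in uterus for tRNA-Glu-CTC, and 97.2%, 98.5% and 95.3% in sperm, testis and uterus for tRNA-Glu-TTC. Without single-read sequences it became 98.9% for tRNA-Glu-TTC in uterus. The altered share counted as distinct sequences was 96.9%, 95.8% and 77.03% in sperm, testis and uterus for tRNA-Glu-CTC and 93.5%, 88.8% and 67.6% for tRNA-Glu-TTC. Without single-read sequences it was 17.3% in uterus for tRNA-Glu-CTC and 22.5%, 32.9% and 12.8% for tRNA-Glu-TTC. Without reads changed at their last base it was 39.6% in sperm and 81.6% in testis for tRNA-Glu-CTC and 24.7% in testis for tRNA-Glu-TTC. At 24 nt and longer it was 30.3% for tRNA-Glu-CTC in uterus. Of 132 alternative values, 48 stayed within the counting error of the value reported, 79 moved beyond it and 5 turned round. No paired analysis was possible because each group had 1 library, and for the same reason no library could be left out. The spread between animals is unknown. In uterus, 520 reads of tRNA-Glu-CTC and 593 of tRNA-Glu-TTC limit every share to a wide interval. Levels per read of a library move with the other RNAs that it holds, and the denominators above move the ratios most where the uterus library enters. Gene copies, chemical changes of the RNA, copying errors and added end bases cannot be told apart in these reads.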
